A study of Mus musculus with 16 samples.

Results

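Cytochrome P450 genes of families 1, 2 and 3 were taken as all probes whose gene symbol begins with Cyp, a family digit of 1, 2 or 3, and a letter. The rule found 62 probes of 45 genes, among the 25697 probes and 16593 gene symbols of the array. Their transcript levels were examined in the liver and the brain of male C57BL/6J mice, all 17 weeks old, on 16 single-colour Illumina bead arrays. Of 8 mice, 4 were homozygous for Pts-R15C-ki and 4 were wild type, and each mouse gave 1 liver and 1 brain array. The knock-in puts the change R15C into Pts, which encodes the second enzyme of tetrahydrobiopterin synthesis, in the whole animal, and the series concerns mild loss of that synthesis and where body fat is stored. The groups are homozygous liver, wild-type liver, homozygous brain and wild-type brain, with n = 4 mice each, numbered 1 to 4 within each genotype. The labels list the same allele name for all mice and tell the groups apart by genotype. They do not say whether mice were littermates or when in the day tissue was taken.

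P450 enzymes are heme proteins that insert 1 atom of oxygen into their substrates, using electrons passed on from NADPH by P450 oxidoreductase and cytochrome b5. Enzymes of families 1 to 3 sit in the endoplasmic reticulum, mostly of hepatocytes, where they oxidize drugs, plant compounds, steroids and fatty acids. Foreign compounds switch many of them on through receptors: the aryl hydrocarbon receptor acts on the Cyp1 genes, the constitutive androstane receptor (Nr1i3) on Cyp2b and Cyp2c genes, and the pregnane X receptor (Nr1i2) on Cyp3a genes. Inflammation is known to lower the transcripts of many hepatic P450s, and several of them follow the time of day through the factors Dbp, Tef and Hlf.

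Tests were limited to probes with signal: at least 4 of a tissue's 8 arrays had to show a detection p-value under 0.05, a value that is small when the signal exceeds the negative control beads. In liver, 38 member probes of 25 genes passed, among 11955 probes in all. In brain, 7 member probes of 6 genes passed, among 13862. Of the 24 member probes not tested in liver, 18 were detected on none of the 16 arrays, among them those of Cyp1a1, Cyp2c40, Cyp2c65, Cyp2j5, Cyp2j6 and Cyp3a44. Levels are log2 normalized intensities, and a difference is that of homozygous minus wild-type means on this scale. Probes have their own binding strength, so levels are compared between mice and not between probes. Many of these genes are close copies in clusters (the Cyp2c genes on chromosome 19, the Cyp2d genes on chromosome 15, Cyp3a on chromosome 5, Cyp2a and Cyp2b on chromosome 7), and a probe may also bind the transcript of a copy. Probe sequences were not used here, so such binding was not examined.

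Between 11785 and 12315 probes were detected on each liver array and between 13241 and 14576 on each brain array. Wild-type livers 1 and 2 stood apart from the other livers, with scores of 43.8 and 46.4 on the first principal component, against -20.9 to -2.79 for the other 6. These 2 livers also had the highest levels of 19 tested acute phase genes: their mean deviation from each probe's average was -1.06 to -0.78 in the homozygous livers, against 1.75 and 1.82 in wild-type livers 1 and 2 and -0.25 and 0.28 in wild-type livers 3 and 4. All 9 hepatocyte marker genes of the array were detected in liver, and 5 of the 9 were detected in no brain sample. Neuron markers ran the other way: 5 of 8 were tested in brain, Nefl and Snap25 were not detected there, and 5 of the 8 were detected in no liver sample.

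Promoters are shown for the 5 genes on which the liver results turn: Cyp3a11 and Cyp3a25, 2 neighbours of the Cyp3a cluster whose probes were higher in homozygous livers, Cyp3a13 of the same subfamily, whose probes were lower, Cyp2a5, with the highest differences, and Cyp2c70, the gene that fell. Each is 300 bases long, from 250 before the start of the gene to 50 after it, 5′ to 3′, from RefSeq on GRCm38.p6. Cyp3a11 lies at chr5:145879805-145880104, Cyp3a25 at chr5:146009569-146009868, Cyp3a13 at chr5:137921570-137921869 and Cyp2c70 at chr19:40187237-40187536, all on the minus strand. Cyp2a5 lies at chr7:26835089-26835388 on the plus strand. Capitals mark AGGTCA or its complement, the half-site bound by many nuclear receptors.
Cyp3a11: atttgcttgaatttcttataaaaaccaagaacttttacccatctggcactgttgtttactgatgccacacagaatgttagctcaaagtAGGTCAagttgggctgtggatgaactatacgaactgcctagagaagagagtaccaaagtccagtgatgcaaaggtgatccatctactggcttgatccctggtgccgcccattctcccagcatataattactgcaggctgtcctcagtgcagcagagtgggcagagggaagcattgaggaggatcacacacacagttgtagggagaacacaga
Cyp3a25: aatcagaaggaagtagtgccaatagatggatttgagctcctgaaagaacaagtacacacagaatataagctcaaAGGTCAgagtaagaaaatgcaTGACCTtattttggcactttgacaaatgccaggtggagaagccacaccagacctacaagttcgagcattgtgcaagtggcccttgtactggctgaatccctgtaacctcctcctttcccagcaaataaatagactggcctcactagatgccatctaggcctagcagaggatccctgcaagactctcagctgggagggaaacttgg
Cyp3a13: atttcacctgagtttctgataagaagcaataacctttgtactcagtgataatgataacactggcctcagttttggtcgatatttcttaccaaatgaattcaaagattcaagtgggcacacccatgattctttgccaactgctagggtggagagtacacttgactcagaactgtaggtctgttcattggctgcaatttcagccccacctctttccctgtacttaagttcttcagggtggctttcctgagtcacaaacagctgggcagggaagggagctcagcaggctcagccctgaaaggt
Cyp2a5: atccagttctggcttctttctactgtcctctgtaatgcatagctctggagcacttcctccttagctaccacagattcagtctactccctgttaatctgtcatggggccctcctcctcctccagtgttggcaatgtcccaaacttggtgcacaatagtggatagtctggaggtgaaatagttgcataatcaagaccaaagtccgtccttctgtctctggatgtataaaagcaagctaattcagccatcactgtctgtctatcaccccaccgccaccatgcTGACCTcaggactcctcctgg
Cyp2c70: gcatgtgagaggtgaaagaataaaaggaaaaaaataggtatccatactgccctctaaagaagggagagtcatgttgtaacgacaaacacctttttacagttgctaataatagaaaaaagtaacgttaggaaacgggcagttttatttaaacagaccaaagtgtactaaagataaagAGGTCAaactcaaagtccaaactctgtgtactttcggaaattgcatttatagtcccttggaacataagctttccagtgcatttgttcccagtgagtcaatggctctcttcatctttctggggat
In these windows the half-site started at position -162 from the gene start in Cyp3a11, at -176 and -155 in Cyp3a25, at -74 in Cyp2c70 and at 30 in Cyp2a5. The Cyp3a13 window held none. A promoter was found in the RefSeq table for 39 of the 45 genes, with 42 windows in all. Searched on both strands, AGGTCA was present in 35.7% of the 42 windows, against 16.3% of all 32851 promoter windows of this length. The member windows are not independent: Cyp3a25 and Cyp2j13 are each counted more than once, with windows that nearly coincide. Cyp2c39 is also counted more than once, with windows that lie apart. Many other windows belong to close copies. TATAAA, the letters of the TATA box, was present on either strand and at any position in 52.4% of member windows and 13.6% of all windows. A match began at -29 in both Cyp2a5 and Cyp2c70, but that of Cyp2c70 was on the strand opposite to the gene. GCGTG, the core of the element bound by the aryl hydrocarbon receptor, was present in 16.7% of member windows and 32.4% of all. TTATGTAA, bound by Dbp and Tef, was present in 0 member windows and 0.938% of all. The looser TTANGTAA, which includes it, was present in 2.38% and 2.32%. TTCNNNGAA, bound by Stat5, was present in 2.38% of member windows and 8.3% of all, and TTGCGCAA, bound by C/EBP factors, in 0 and 0.183%. Such matches describe letters in these windows only and show no binding.

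In liver, Cyp3a11 rose and Cyp2c70 fell in homozygous mice, and 36 other P450 probes did not pass the test. The Cyp2a5 probes had the largest differences, between 1.30 and 1.80, with adjusted p-values between 0.0936 and 0.108. Of the 38 probes, 31 were higher and 7 lower in homozygous livers, with a median difference of 0.23, against 0.02 over all 11955 probes. The share higher was 81.6% of member probes and 53.5% of all probes. The 38 probes read 25 genes, 8 of them with more than 1 tested probe, so probe counts are not counts of separate genes. The comparison used limma with Benjamini-Hochberg adjustment over all tested probes and a threshold of 0.05. It called 2 of 38 member probes, 1 in each direction, while it called 0.903% of all probes (0.368% higher and 0.535% lower in homozygous livers). Unadjusted p-values were under 0.05 for 36.8% of member probes and 22.6% of all probes. The 4 homozygous values lay entirely above or below the 4 wild-type values for 7 member probes and for 13% of all probes, with 6 above (6.73% of all) and 1 below (6.22% of all). In whole tissue, fewer cells of a type and less RNA per cell cannot be told apart. Without wild-type livers 1 and 2, which left 2 wild-type mice, limma called 0 of the 38 probes and 23 of all 11955. The median difference of the 38 probes was then 0.13. The counts were again 31 higher and 7 lower, but 4 probes had changed sign: both of Cyp1a2 turned negative, and 1 each of Cyp2c67 and Cyp3a13 turned positive.

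**Figure D1:**
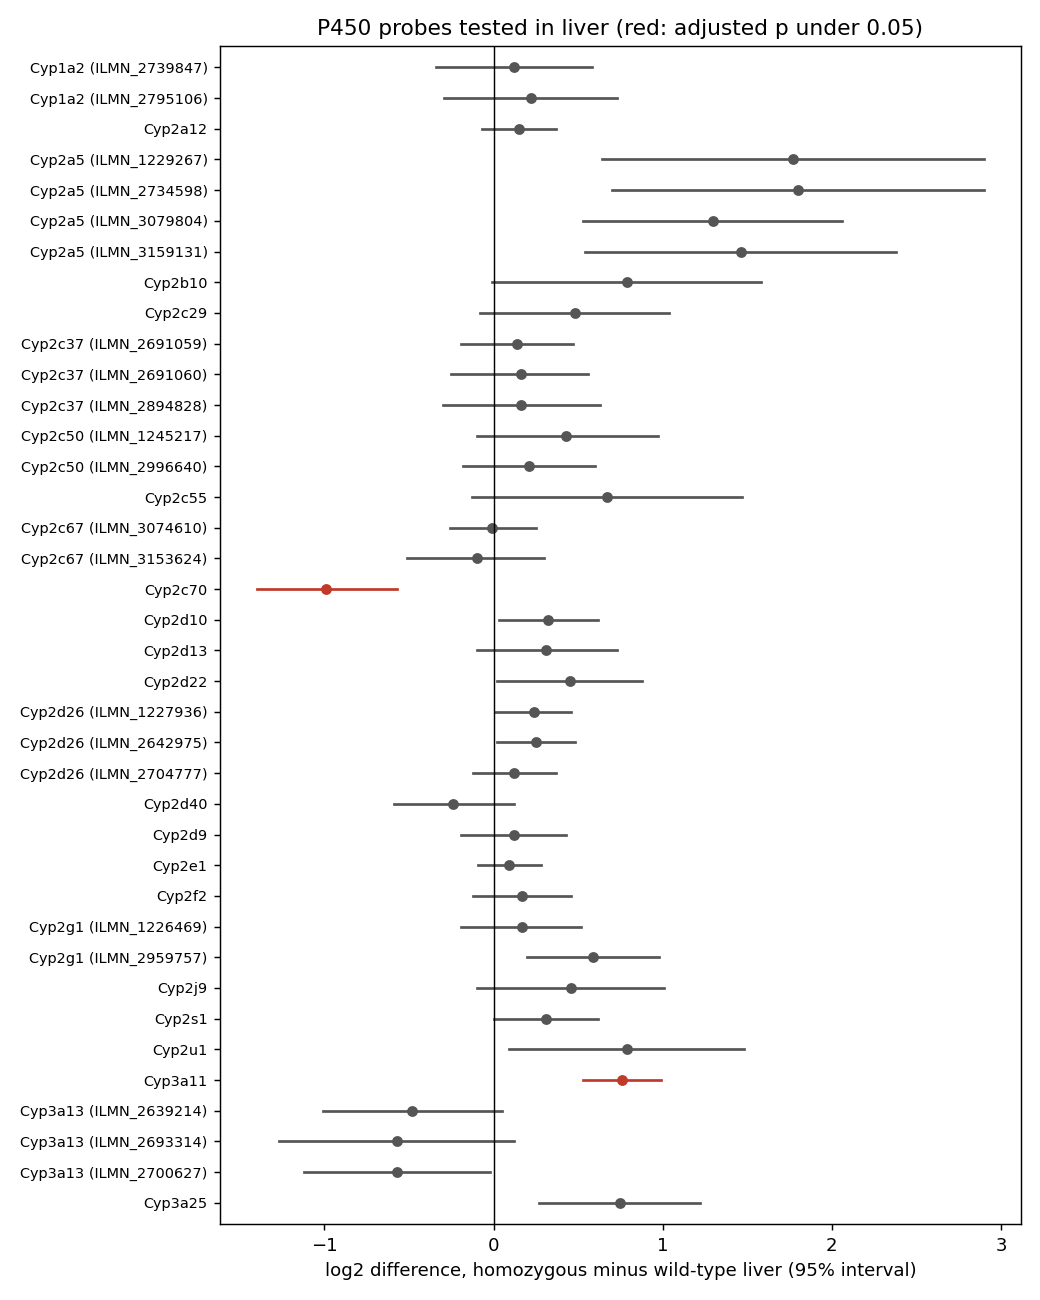
Log2 difference of homozygous minus wild-type liver (x axis) for the 38 P450 probes tested there (y axis), as points with 95% intervals of the limma fit, n = 4 mice per genotype. Cyp3a11 at 0.76 and Cyp2c70 at -0.99, in red, passed the adjusted threshold, and the 4 Cyp2a5 probes lay farthest to the right with wide intervals.

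Cyp3a11 is the main inducible Cyp3a enzyme of mouse liver, and it oxidizes many drugs and steroids, much as CYP3A4 does in human liver. Its log2 level was 14.03, 13.80, 13.88 and 13.96 in homozygous livers 1 to 4, against 13.14, 12.97, 13.26 and 13.25 in wild-type livers 1 to 4. The genotypes did not overlap, and the group SDs of 0.10 and 0.13 were small beside the gap. The difference was 0.76 on the log2 scale (SE 0.10), a 1.69-fold higher signal, with an adjusted p of 0.0251 in limma. Without wild-type livers 1 and 2 it was 0.66 (SE 0.11) with an adjusted p of 0.0713, so the call was lost. Leaving out any 1 mouse gave 0.70 to 0.80, with the call lost (adjusted p of up to 0.108) on omitting wild-type mouse 1 or 2 or homozygous mouse 1, 3 or 4.

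Cyp3a25, a second Cyp3a gene expressed in adult liver, had log2 levels of 12.55, 12.34, 12.29 and 12.12 in homozygous livers, against 11.20, 11.20, 12.16 and 11.76 in wild-type livers. Wild-type mouse 3 lay within the homozygous range, and wild-type mice 1 and 2 were the lowest. The difference was 0.75 (SE 0.21, adjusted p = 0.108 in limma), and 0.37 without those 2 mice. Cyp3a13, a Cyp3a gene also active in the intestine, was read by 3 probes with log2 differences of -0.48, -0.57 and -0.57 and limma adjusted p-values of 0.21 to 0.297. Its probe ILMN_2700627 had 10.92, 10.46, 10.60 and 10.65 in homozygous livers, against 11.57, 11.82, 10.76 and 10.76 in wild-type livers. Wild-type mice 1 and 2 alone were high, and without them the log2 differences of the 3 probes were -0.10 to 0.04. Cyp3a16, Cyp3a41a and Cyp3a44, which are higher in female or young mice, were detected on no array. Of the 6 genes on the array from a list of pregnane X receptor targets, 3 were tested, and 1 of them rose.

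Cyp2c70 makes muricholic acids, the bile acids typical of mice, from chenodeoxycholic acid. Its log2 level was 13.32, 12.97, 12.80 and 12.51 in homozygous livers 1 to 4, against 14.09, 14.06, 13.85 and 13.55 in wild-type livers 1 to 4. The highest homozygous value lay below the lowest wild-type value. The difference was -0.99 (SE 0.19), which is 0.505 times the wild-type signal, with an adjusted p of 0.0476 in limma. Without wild-type livers 1 and 2 the difference was -0.80 (SE 0.21), with an adjusted p of 0.17. Leaving out any 1 mouse gave -1.13 to -0.86, and the call held only on omitting wild-type mouse 3 or 4, with an adjusted p of up to 0.164 otherwise. It was the lowest difference among the 38 probes.

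**Figure D2:**
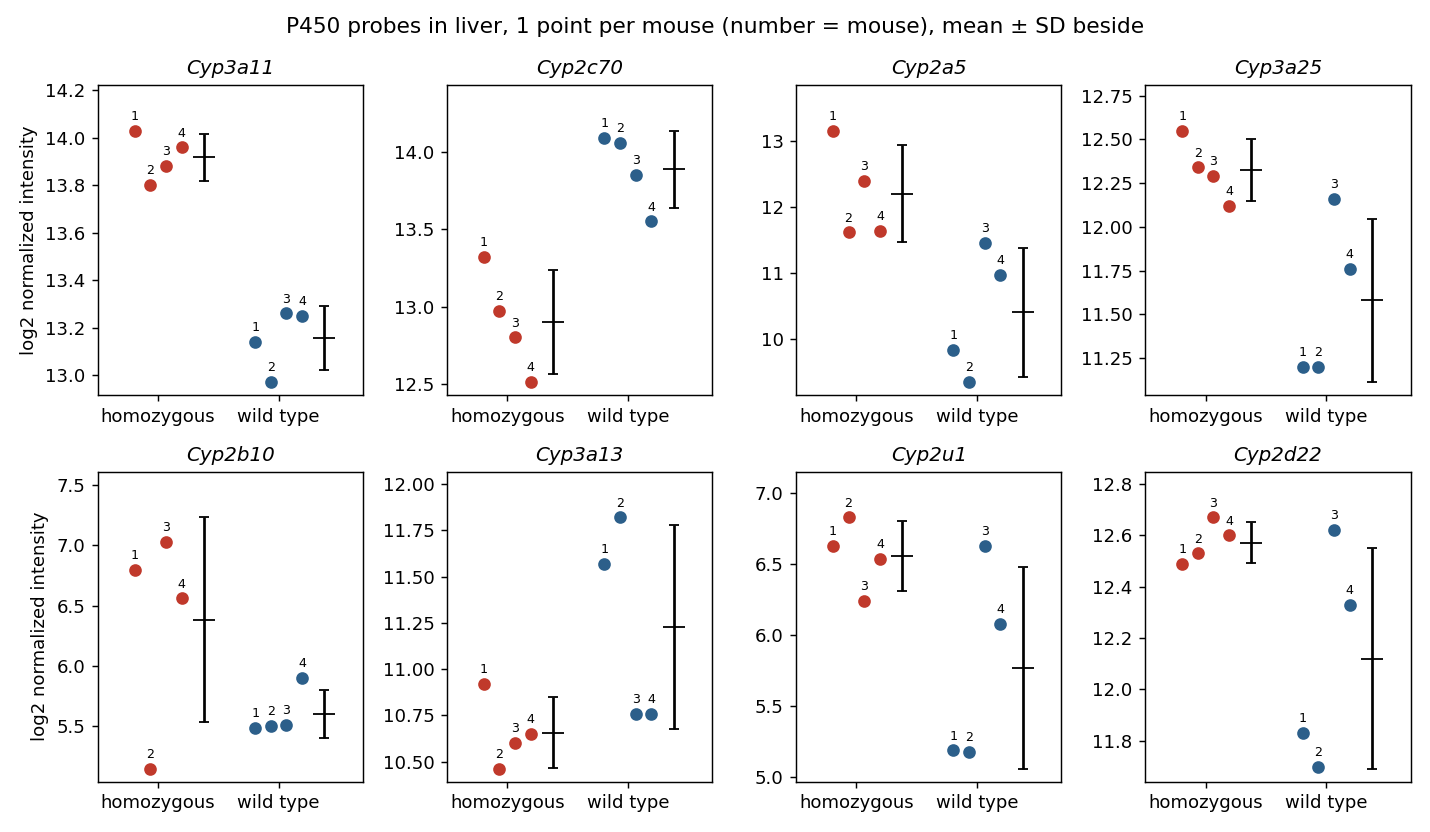
Log2 normalized intensity (y axis) of 8 P450 probes in each liver, homozygous at left and wild type at right, with the mouse number above each point and the mean ± SD (n = 4) beside it. Cyp3a11, Cyp2c70 and Cyp2a5 separated the genotypes. For Cyp2a5, Cyp3a25, Cyp3a13, Cyp2u1 and Cyp2d22 wild-type mice 1 and 2 lay apart from wild-type mice 3 and 4. Cyp2a5 is shown by probe ILMN_2734598 and Cyp3a13 by ILMN_2700627.

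The Cyp2a subfamily had the widest differences. Cyp2a5 hydroxylates coumarin and oxidizes nicotine, and it is known to follow the time of day in mouse liver. Its probe ILMN_2734598 had log2 levels of 13.16, 11.62, 12.40 and 11.64 in homozygous livers, against 9.84, 9.35, 11.46 and 10.98 in wild-type livers. Every homozygous liver lay above every wild-type liver, and wild-type mice 1 and 2 were the lowest of the 8. The other 3 Cyp2a5 probes kept the same order of the groups, without overlap. The 4 probes gave fitted folds of 2.46 to 3.48 with limma adjusted p-values of 0.0936 to 0.108, so none was called. Without wild-type mice 1 and 2 the log2 differences were 0.66 to 0.98, with adjusted p-values of 0.293 to 0.384. Cyp2a4, a near-identical gene that is higher in females, may bind the same probes. The remaining tested gene, Cyp2a12, a steroid hydroxylase, had a difference of 0.15 (SE 0.10).

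Among genes that answer to the constitutive androstane receptor, 5 of 8 on the array were tested in liver. All 5 had positive log2 differences, with a median of 0.48, and limma called none. Cyp2b10, the gene most used as a marker of that receptor, had log2 levels of 6.80, 5.14, 7.03 and 6.56 in homozygous livers, against 5.48, 5.50, 5.51 and 5.90 in wild-type livers. Homozygous mice 1, 3 and 4 were above all wild-type mice, and homozygous mouse 2 was below all of them. The difference was 0.79 (SE 0.35, adjusted p = 0.226 in limma), and it was 1.20 with an adjusted p of 0.0294 without homozygous mouse 2. Cyp2c55, an arachidonic acid hydroxylase, had 7.66, 6.90, 7.21 and 6.95 in homozygous livers, against 5.97, 5.92, 6.49 and 7.65 in wild-type livers, with wild-type mouse 4 near the top. Its log2 difference of 0.67 became 0.11 without wild-type mice 1 and 2. Cyp2c29 had a difference of 0.48 (SE 0.25), its highest levels being 10.29 and 10.37 in homozygous livers 3 and 4, against 9.11 to 9.71 in the wild-type livers.

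The other Cyp2c probes had smaller differences. The 3 probes of Cyp2c37 had log2 differences of 0.14 to 0.16, and the 2 probes of Cyp2c50, an epoxygenase gene beside it, 0.21 and 0.43. The 2 probes of Cyp2c67 had differences of -0.01 and -0.10. Across the Cyp2c subfamily, 10 probes of 6 genes were tested, 7 were higher and 3 lower, and Cyp2c70 was the 1 called.

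The Cyp2d subfamily, which oxidizes steroids and basic drugs, had 8 tested probes of 6 genes. Of these 7 were higher and 1 lower in homozygous livers, within -0.24 to 0.45 on the log2 scale, and none was called. Cyp2d22 had log2 levels of 12.49, 12.53, 12.67 and 12.60 in homozygous livers, against 11.83, 11.70, 12.62 and 12.33 in wild-type livers. The homozygous values were tight (SD 0.08), and wild-type mice 1 and 2 alone were clearly lower, so the difference of 0.45 (SE 0.19) became 0.09 without them. Cyp2d10 had a difference of 0.32 (SE 0.13), and 0.14 without those mice, and the 3 probes of Cyp2d26 had 0.12 to 0.25. Cyp2d9, a male-biased testosterone hydroxylase, had 0.12 (SE 0.14), and Cyp2d40 had -0.24 (SE 0.16).

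The other subfamilies with 1 tested gene were also uncalled in liver. Cyp2u1, a fatty acid hydroxylase, had log2 levels of 6.63, 6.83, 6.24 and 6.54 in homozygous livers, against 5.19, 5.18, 6.63 and 6.08 in wild-type livers. Its difference of 0.79 (SE 0.31) became 0.20 without wild-type mice 1 and 2, the 2 lowest. Cyp2g1, best known from olfactory tissue, had differences of 0.17 and 0.59 at its 2 probes, the second with an adjusted p of 0.112 in limma. Cyp2j9, an arachidonic acid hydroxylase described in mouse brain, had 0.46 (SE 0.25), and 0.04 without wild-type mice 1 and 2. Cyp2e1, which oxidizes ethanol, acetone and paracetamol, had 14.75, 14.69, 14.78 and 14.79 in homozygous livers, against 14.64, 14.64, 14.68 and 14.67 in wild-type livers. Those groups did not overlap, but the difference was 0.09 (SE 0.08, adjusted p = 0.524 in limma). Cyp2f2, a naphthalene-oxidizing enzyme of periportal hepatocytes and lung, had 0.17 (SE 0.13), and 0.09 without wild-type mice 1 and 2. Cyp1a2, which clears caffeine and is the main family 1 enzyme of liver, had 0.12 and 0.22 at its 2 probes, and -0.23 and -0.19 without wild-type mice 1 and 2. The 3 probes of Cyp1a1 and Cyp1a2 on chromosome 9 lie within 10 Mb of Pts itself.

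Across mice, the same 2 livers recurred. Of the 38 probes, 22 had their lowest value of the 8 livers in wild-type mouse 1 or 2, and for 17 these mice were the 2 lowest. For 4 probes, Cyp2c70 and the 3 of Cyp3a13, they were the 2 highest. The mean deviation of the member probes from their averages was 0.19, 0.01, 0.28 and 0.19 in homozygous livers 1 to 4, against -0.25, -0.36, 0.01 and -0.07 in wild-type livers 1 to 4. Wild-type livers 3 and 4 were thus level with homozygous liver 2 or slightly below it. The part that the acute phase genes play in the P450 differences was not tested.

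**Figure D3:**
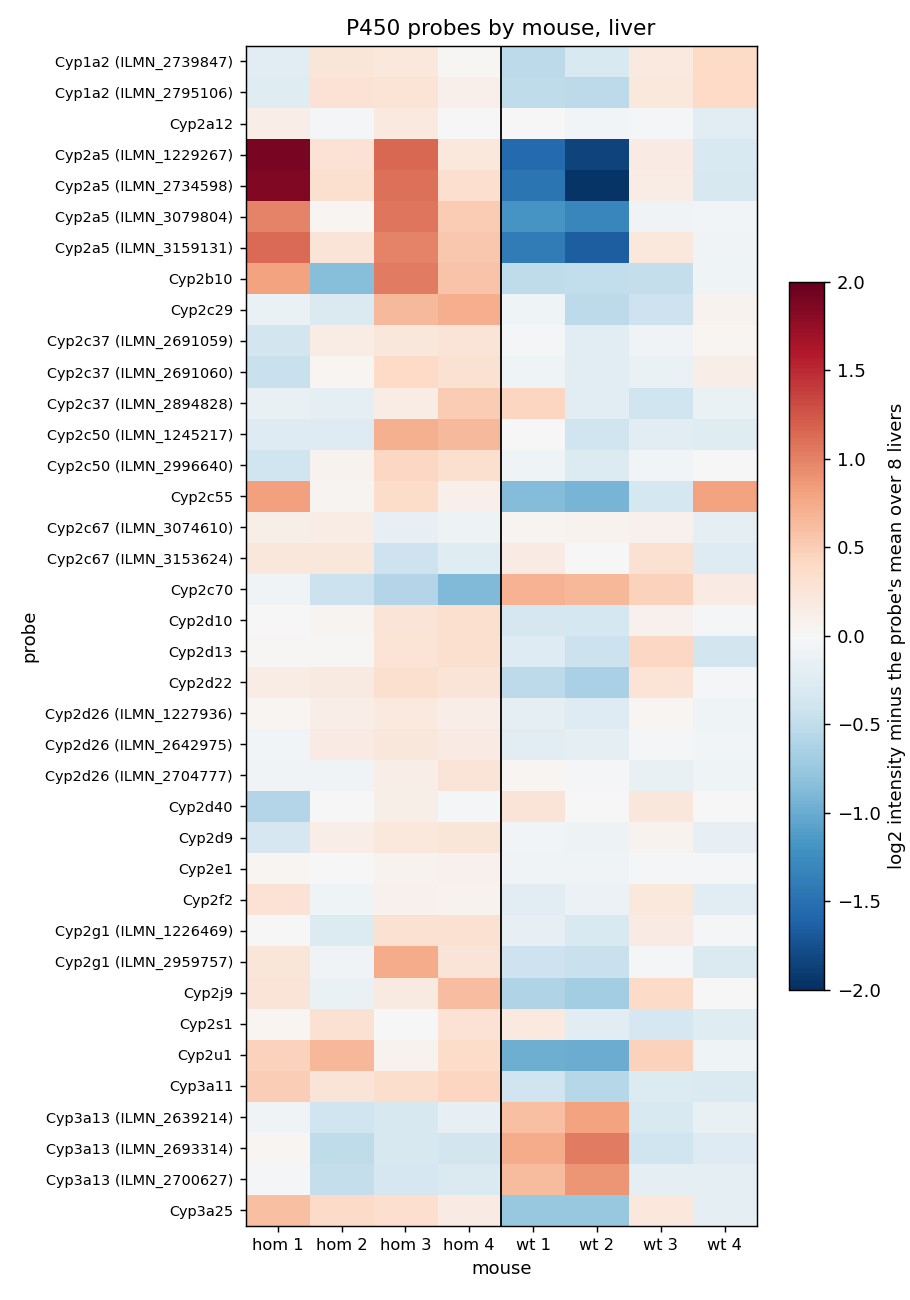
Log2 intensity of each P450 probe tested in liver (rows) minus that probe's mean over the 8 livers (colour scale), for homozygous mice 1 to 4 at left and wild-type mice 1 to 4 at right of the black line. Wild-type mice 1 and 2 were the 2 lowest livers for 17 of the 38 probes and the 2 highest for Cyp2c70 and the 3 Cyp3a13 probes.

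Genes of electron transfer to P450s and of heme supply and breakdown did not pass the test in liver. Of 11 listed genes 9 were found on the array by symbol. P450 oxidoreductase (Por) was not among them and so was not tested. Of 9 tested genes 0 were called by limma, with a median log2 difference of 0.15. The widest were Hmox1, which breaks heme down, at -0.98 (adjusted p = 0.233), and Cyb5r3, a cytochrome b5 reductase, at 0.33 (adjusted p = 0.292). Hmox1 levels were 5.46, 5.09, 4.80 and 5.15 in homozygous livers, against 7.21, 6.85, 5.06 and 5.29 in wild-type livers, so wild-type mice 1 and 2 alone were high. Without these 2 mice the difference was -0.05 for Hmox1 and 0.01 for Cyb5r3.

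Receptors and transcription factors of P450 genes gave 0 calls among 19 tested in liver, with a median log2 difference of 0.20. Of these 13 were higher and 6 lower in homozygous livers. The lowest differences were those of Cebpb at -0.93 and Foxa3 at -0.66 (adjusted p = 0.175 and 0.212 in limma). Dbp, the clock output factor, had log2 levels of 11.69, 11.56, 12.01 and 11.29 in homozygous livers, against 7.44, 7.78, 10.98 and 10.35 in wild-type livers. All homozygous values were above all wild-type values, with wild-type mice 1 and 2 lowest, as for Cyp2a5. The difference of 2.50 (SE 0.72) had an adjusted p of 0.111 in limma, and it was 0.97 without those 2 mice. Its relative Tef had a difference of 1.00 (adjusted p = 0.0964), and 0.49 without them. Ppargc1a, a coactivator of fasting metabolism, had 0.80 (adjusted p = 0.0507) and Ppara, the fatty acid receptor, 0.55 (adjusted p = 0.0643). Nr1i2, the pregnane X receptor, had 0.48 (adjusted p = 0.153) and Nr1i3, the constitutive androstane receptor, 0.57 (adjusted p = 0.33). Without wild-type mice 1 and 2 the differences were 0.68 for Ppargc1a, 0.49 for Ppara, 0.34 for Nr1i2 and 0.14 for Nr1i3. Their adjusted p-values in limma were then 0.177 to 0.857. Ahr was detected on no liver array. The part of any of these factors in the P450 differences was not tested.

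Other targets of the same receptors gave 1 call among 15 tested in liver, with a median log2 difference of 0.36. Slco1a4, an uptake transporter for organic anions and bile acids, rose: its log2 level was 8.34, 7.83, 8.29 and 8.29 in homozygous livers, against 6.64, 6.75, 7.04 and 7.41 in wild-type livers. Its lowest homozygous value exceeded its highest wild-type value, and the difference was 1.23 (SE 0.18, adjusted p = 0.0337 in limma). Without wild-type mice 1 and 2 it was 0.96, with an adjusted p of 0.0799. Gsta2, a glutathione transferase, had 1.57 (adjusted p = 0.129), and the efflux transporter Abcc3 had 0.95 (adjusted p = 0.0891). For both, wild-type mice 1 and 2 were the 2 lowest livers, and without them the differences were 0.69 for Gsta2 and 0.51 for Abcc3.

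P450s of other families gave 0 calls among 23 genes tested in liver, and their median log2 difference was 0.04. Cyp4a14, a fatty acid hydroxylase under Ppara, had log2 levels of 12.05, 11.20, 13.14 and 13.31 in homozygous livers, against 10.91, 9.05, 9.67 and 10.18 in wild-type livers. These groups did not overlap, and the difference was 2.47 (SE 0.51, adjusted p = 0.0558 in limma), and it was 2.50 without wild-type mice 1 and 2. Cyp7a1, the rate-limiting enzyme of bile acid synthesis, had 10.70, 10.67, 10.09 and 10.03 in homozygous livers, against 7.16, 6.24, 10.56 and 10.35 in wild-type livers. Only wild-type mice 1 and 2 were low, and the difference of 1.80 (SE 0.89) became -0.08 without them.

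Position in the liver lobule and sex bias were examined with lists of genes. All 7 tested P450s of the zone around the central vein had positive differences (median 0.21), and Cyp3a11 was the 1 called. Differences were also positive for 81.6% of all member probes and for Cyp2f2 of periportal hepatocytes (0.17). Cyp1a2, among the 7, turned negative without wild-type mice 1 and 2. Of 11 other genes of the zone around the central vein, 4 were higher and 7 lower (median -0.07), with 0 called. Cyp7a1 had the widest difference and Slc1a4, an amino acid transporter, the next at -0.57. Of 7 other genes of the zone around the portal vein, 6 were higher and 1 lower (median 0.21), with 0 called. Ass1 of the urea cycle had 0.75 and the protease gene Ctsc -0.69. Of the 3 male-biased P450s, Cyp2c70 fell and Cyp2d9 and Cyp2u1 were not called. Of 8 other male-biased genes 0 were called, with a median of -0.22, and Selenbp2 and Cyp7b1 had -1.11 and -0.71. None of the 7 female-biased P450s on the array was tested, and 5 of them were detected on no liver array. Of 2 other female-biased genes tested, Acot3, a peroxisomal thioesterase, had 1.74 and Cyp17a1 -0.27.

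The acute phase list had 19 tested genes, all lower in homozygous livers, and 3 fell (Orm1, Saa1 and Saa2) with a median of -1.08. Saa1, serum amyloid A, had log2 levels of 5.29, 5.31, 5.20 and 5.02 in homozygous livers, against 11.67, 11.89, 7.06 and 9.60 in wild-type livers. Without wild-type mice 1 and 2 the differences were -0.87 for Orm1, -3.12 for Saa1 and -2.93 for Saa2, and limma called Saa2 alone of these 3 (adjusted p = 0.0401). The widest difference in this list, -6.06, was that of Lcn2, an iron-binding protein of neutrophils and stressed hepatocytes. The 5 tested liver macrophage markers were all lower, with 1 called, and the summed log2 level of their probes was 8.74 to 9.10 in homozygous livers, against 9.48 to 9.95 in wild-type livers. Of the neutrophil and monocyte markers, 1 of 7 was tested and fell by 2.51 on the log2 scale, and Camp, Ltf, Mpo and Ngp were detected on no liver array. Summed hepatocyte marker levels were 17.01 to 17.05 on the log2 scale in homozygous livers, against 16.91 to 17.07 in wild-type livers. What part these cells had in the P450 levels was not tested.

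In brain, no P450 probe of these families passed the test between genotypes. The limma fit called 0 of 7 member probes and 0.0144% of all 13862 probes. An unadjusted p under 0.05 was found for 1 member probe and 3.17% of all. Differences on the log2 scale ran from -0.31 to 0.09, with a median of -0.06, and 6 of 7 were below 0. Over all tested probes 51.6% were higher in homozygous brains. Without wild-type mouse 2 the member counts were 4 higher and 3 lower. Cyp2s1, an epithelial P450 that can metabolize retinoids and lipid mediators, had log2 levels of 6.13, 6.26, 6.01 and 5.97 in homozygous brains, against 6.35, 6.54, 6.38 and 6.37 in wild-type brains. All homozygous brains were below all wild-type brains, a separation found for this 1 of 7 member probes and for 2.06% of all probes. Its difference was -0.31 (SE 0.11), with an unadjusted p of 0.0155 and an adjusted p of 1. The brain arrays fell into a brighter and a dimmer set, each with 2 mice of each genotype, and within them the difference was -0.16 and -0.47.

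Cyp1b1, which oxidizes estradiol and is found in vessel-associated cells, was detected on all 8 brain arrays and on 1 liver array. Its log2 level was 5.33, 5.33, 5.63 and 5.02 in homozygous brains, against 5.97, 5.76, 5.27 and 5.51 in wild-type brains, and the groups overlapped. The difference was -0.30 (SE 0.18, adjusted p = 1 in limma). Cyp2d22, the Cyp2d gene with the clearest brain signal here, had 8.63, 8.60, 8.89 and 9.02 in homozygous brains, against 8.67, 9.09, 8.71 and 8.72 in wild-type brains. Its difference of -0.01 had a 95% interval of -0.33 to 0.30. Cyp2j9 had -0.06 with an interval of -0.31 to 0.20. Cyp2d40, detected on 4 of 8 brain arrays, had -0.06, and the 2 Cyp3a13 probes, each detected on 6 of 8, had -0.10 and 0.09. At the edge of detection, Cyp2f2 was above background in 0 of 4 homozygous brains and 3 of 4 wild-type brains. Cyp2e1 was above background in 2 of 4 homozygous brains and 0 of 4 wild-type brains. Neither was tested.

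The P450-related lists gave 0 calls in brain as well: 0 of 9 electron transfer and heme genes, 0 of 10 receptors and factors, 0 of 7 other receptor targets and 0 of 13 P450s of other families. Dbp had a log2 difference of 0.11 there (SE 0.13) and Tef 0.01 (SE 0.20).

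Whether genotype acted differently in liver and brain could be tested for 6 probes of 5 genes. The limma contrast of the liver difference minus the brain difference called 0 of them and 0.0762% of 10492 probes. Unadjusted p-values were under 0.05 for 2 of the 6 and for 11.7% of all. Cyp2s1 had differences of 0.31 in liver and -0.31 in brain, and their contrast was 0.62 (SE 0.17), with an unadjusted p of 0.00243 and an adjusted p of 0.205. In liver Cyp2s1 was detected in 4 homozygous mice and 1 wild-type mouse, so its liver value lies near background. For Cyp3a13 probe ILMN_2700627 the contrast was -0.66 (SE 0.28, adjusted p = 0.357), and for the other probe -0.38. Cyp2j9 had 0.51 (SE 0.28), Cyp2d22 0.46 (SE 0.25) and Cyp2d40 -0.17 (SE 0.21). Without wild-type mice 1 and 2 the contrast was 0.10 for Cyp2j9, 0.03 for Cyp2d22, and -0.22 and -0.04 for the Cyp3a13 probes, while that of Cyp2s1 was 0.72 (adjusted p = 0.517 in limma).

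**Figure D4:**
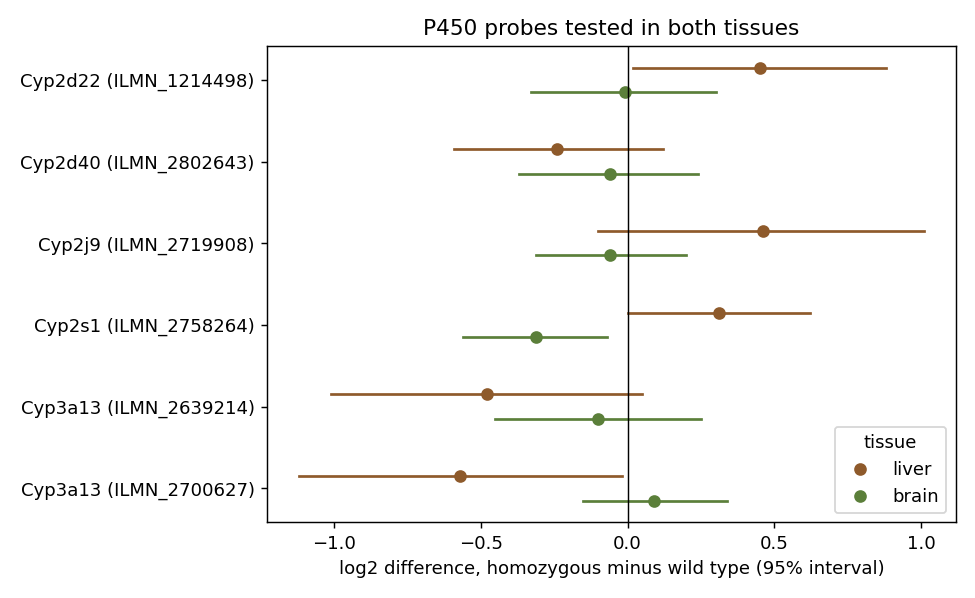
Log2 difference of homozygous minus wild type (x axis) with 95% interval for the 6 P450 probes tested in both tissues (y axis), liver in brown above brain in green, n = 4 mice per genotype and tissue. Cyp2s1 lay at 0.31 in liver and -0.31 in brain, and the intervals of Cyp2d22, Cyp2d40, Cyp2j9 and both Cyp3a13 probes overlapped between tissues.

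Wild-type livers were then set against wild-type brains, on values normalized over those 8 arrays together. Of 37 tested member probes of 26 genes, 34 were higher in liver and 3 higher in brain, all past the threshold in limma. Across all 14375 tested probes, 77.2% were called (38.8% higher and 38.4% lower in liver). Most member probes passed the detection filter through liver alone, so that count follows in part from the filter. For 29 probes no wild-type brain was above background, and only a lower bound of the fold was set, against the lowest detected signal of each brain array or the probe's own signal where that was higher. On this basis Cyp2e1 was at least 759-fold higher in liver, Cyp2c70 at least 448-fold, Cyp2d9 at least 365-fold and Cyp3a11 at least 284-fold. At the other end, Cyp2b10 was at least 2.56-fold higher and Cyp2g1 at least 1.62-fold. Cyp2d22, measured on all 8 arrays, had log2 levels of 11.68, 11.56, 12.38 and 12.13 in liver, against 8.49, 8.95, 8.54 and 8.55 in brain, a 9.9-fold difference (adjusted p 5.14e-08 in limma).

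The 3 genes higher in brain were Cyp2j9, Cyp2s1 and Cyp1b1. Cyp2j9 had log2 levels of 6.93, 6.84, 7.85 and 7.48 in wild-type livers, against 8.32, 8.78, 8.51 and 8.58 in wild-type brains, without overlap, and a liver minus brain difference of -1.27 (SE 0.22). Cyp2s1 had 5.40, 4.81, 4.61 and 4.78 in wild-type livers, against 5.98, 6.19, 6.01 and 6.01 in wild-type brains, and a difference of -1.15 (SE 0.17), although only 1 of the 4 wild-type livers was above background, so the size of this difference rests on dim liver signals. Cyp1b1 had 5.10, 4.98, 4.36 and 4.80 in wild-type livers, against 5.61, 5.41, 5.00 and 5.20 in wild-type brains, and a difference of -0.49 (SE 0.19, adjusted p = 0.033 in limma), with 1 of 4 wild-type livers above background. That call for Cyp1b1 was lost in most repeats: it held in 1 of 4 fits that left out 1 mouse (adjusted p of up to 0.0802) and under 3 of 9 other settings (adjusted p of up to 0.119), and the difference ranged from -0.62 to -0.14. Liver and brain did not overlap for Cyp2j9 and Cyp2s1, and they did for Cyp1b1.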

How the data were processed

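Brain and liver arrays of 8 mice were grouped by the genotype and tissue in the labels. The first table deposited by the authors held bead signals of unit intensity, not normalized, with a detection p-value beside each; the second held normalized intensity whose method is not given in the sources used here. The submitters' processing notes name GenomeStudio 2011.1. Signals were corrected with limma's nec (version 3.58.1, R 4.3.3, offset 16) and quantile-normalized within a tissue on the log2 scale, or over the 8 wild-type arrays for the tissue comparison. Groups were compared with lmFit and eBayes. Symbols came from the platform annotation (1719 of 25697 probes had none), and all 45 member symbols matched RefSeq by gene ID. P450 symbols of other families required a digit after Cyp. Liver and brain of a mouse share an animal identifier (consensus correlation 0.00973), and mouse as a block changed no call of a member. The members, the gene lists and the tests were chosen with earlier results of these data known. Probes named with values were those called, the 14 genes with the smallest p in liver and the 6 in brain, the widest of each subfamily, genes tested in both tissues, and in each list the called genes and the 2 with the widest difference. Some genes were named beyond these rules, among them the factors Ppargc1a, Ppara, Nr1i2, Nr1i3, Cebpb and Foxa3. The number of arrays limits the precision. Fits were tested on simulated data. The labels do not say how separately tissues were handled, so p-values measure the spread between these samples. Alternatives are given in the closing section.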

Additional observations from a re-analysis of the deposited data

Results flagged for a closer look

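In 90 groups of 4 mice, 4 had 1 value far from the others by Dixon's test at the 95% level, which chance gives for about 1 in 20 groups. In wild-type liver, mouse 4 had a log2 level of 5.90 for Cyp2b10, against 5.48 to 5.51 in the other 3. Mouse 4 also had 12.63 for Cyp2c67 (probe ILMN_3074610), against 12.88 to 12.92. In wild-type brain, mouse 2 had 9.09 for Cyp2d22, against 8.67 to 8.72, and 6.54 for Cyp2s1, against 6.35 to 6.38. The brain difference of Cyp2s1 stayed between -0.37 and -0.27 on leaving out any 1 mouse.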

How the results depend on the processing

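The 2 called liver probes became 1 without background subtraction, without a detection filter, with a strict filter, and with the replicate number as a block, and 8 with all 16 arrays in 1 fit. Array weights gave 19. Omitting wild-type mice 1 and 2 together left 0, and omitting 1 mouse gave 0 to 10: 0 without wild-type replicate 1 or 2 or homozygous replicate 1, 3 or 4, and 10 without wild-type replicate 3. Calls over all tested liver probes also moved, from 108 in the main fit. They were 78 without background subtraction, 35 without a detection filter, 30 with a strict filter and 32 with the block. All 16 arrays in 1 fit gave 811 and array weights 2931. Omitting wild-type mice 1 and 2 together gave 23, and omitting 1 mouse gave 9 to 944, the highest without wild-type replicate 3. Cyp3a11 kept its call and Cyp2c70 lost it without background subtraction, without a detection filter and with a strict filter. Of the 11 settings other than leaving out 1 mouse, Cyp2c70 was called in 7 and Cyp3a11 in 9. In the replicate block Cyp2c70 kept its call (-0.99, adjusted p = 0.0402) and Cyp3a11 lost it. Same-numbered mice of the 2 genotypes are different animals, so the block pairs nothing by design. Array weights called 3 member probes in the liver minus brain contrast, where the main fit called 0. Of all 10492 probes in that contrast, array weights called 1251 and the main fit 8. The strict filter asked for detection on every array, so only 2 of the 37 probes were tested between wild-type liver and brain. Both stayed called, Cyp2d22 higher and Cyp2j9 lower in liver. Brain calls stayed 0 under every alternative run. Over all alternatives Cyp3a11 ranged from 0.65 to 0.81 and Cyp2c70 from -1.13 to -0.80. Signs turned for some differences. Without wild-type mice 1 and 2, Cyp1a2 became -0.23 and -0.19, Cyp2c67 0.05, Cyp3a13 (ILMN_2693314, -0.57 with all mice) 0.04, and in brain Cyp2d22 0.07 and Cyp3a13 0.02. Median scaling gave Cyp2c67 0, and array weights gave brain Cyp2d40 0. Within the brighter brain arrays Cyp2d40 was 0.12 and Cyp2j9 0.10, and within the dimmer ones Cyp2d22 was 0.05 and Cyp3a13 0.01. On leaving out 1 mouse, Cyp1a2 ranged from -0.03 to 0.27, the 2 Cyp2c67 probes from -0.07 to 0.05 and from -0.21 to 0.02, brain Cyp2d22 from -0.09 to 0.08, brain Cyp2d40 from -0.12 to 0.03, brain Cyp2j9 from -0.13 to 0.02, and the contrast of Cyp2d40 from -0.30 to 0.01. The causes were not tested.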
